A study of Mus musculus with 6 samples.

Results

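The genes described here are the nuclear genes for subunits of respiratory chain complexes I to IV in the mouse hypothalamus. They were chosen by symbol alone: the Nduf genes of the a, b, c, s, v and ab series, Sdha to Sdhd, all Uqcr genes, and Cox4 to Cox8. Subunit genes with other symbols, such as Cyc1 of complex III, are therefore not among them. Only probesets that the platform annotation pairs with 1 gene were taken, and where a gene had several, the probeset with the highest mean signal over the 6 arrays stood for it. This gave 64 of the 17072 genes that have such a probeset, with 34 in complex I, 4 in complex II, 8 in complex III and 18 in complex IV. Ndufa4 and its paralog Ndufa4l2 were placed with complex IV, because the Ndufa4 protein is now counted among the subunits of that complex.

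Hypothalamic RNA from female C57Bl/6J mice was hybridised to 6 Affymetrix whole-transcript arrays, 3 for each of 2 groups. In the CGP group the mothers had received CGP 39551, a blocker of the NMDA type of glutamate receptor, by mouth at 5 mg/kg through pregnancy until weaning was complete, so that the offspring were exposed through their mothers. The CON group held control mice, and what their mothers were given is not stated in the sources used here. Both groups shared strain, sex and standard chow, were killed at 21 weeks of age, and were measured as RNA pooled from 18 mice per group. The labels do not tell whether replicate arrays held separate pools or 1 pool, so each p-value rests on array-to-array spread, which could be technical, and not on mouse-to-mouse spread. Because the RNA came from whole tissue, fewer cells of a type and less RNA per cell cannot be told apart.

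The respiratory chain sits in the inner mitochondrial membrane. Complex I takes electrons from NADH and complex II from succinate, both pass them to ubiquinone, complex III passes them on to cytochrome c, and complex IV uses them to reduce oxygen to water. Complexes I, III and IV pump protons, and the gradient drives ATP synthesis by complex V. Neurons depend heavily on this pathway for the energy of ion pumping and synaptic transmission. Except for complex II, each complex also holds subunits from the mitochondrial genome, which were not analysed here.

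In CGP hypothalamus, 1 of the 64 genes rose, Cox6a2, which encodes the form of a complex IV subunit best known from heart and skeletal muscle, and none fell at an adjusted p under 0.05 (limma, Benjamini-Hochberg adjustment over 18239 tested probesets). All 64 genes passed the filter of a mean log2 signal of at least 6. Over all tested probesets the same call was made for 0.154 percent in the higher direction, which is 28 probesets, and for 0.126 percent in the lower direction, which is 23. The split of calls moved with scaling, since it was 37 higher and 18 lower once each array was centred on its median. At an unadjusted p under 0.05, Cox6a2 was higher and 3 genes were lower (Cox7a1, Ndufb2 and Ndufb5), or 6.25 percent of the 64, against 11.1 percent of all tested probesets.

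The other 63 genes lay close together in the 2 groups. Their differences, CGP minus CON on the log2 scale, ran between -0.18 for Ndufb2 and 0.15 for Cox6b2, and their smallest adjusted p was 0.344 (limma). The 95% intervals of these 63 differences reached no lower than -0.34 and no higher than 0.31, and the median half-width was 0.0977. A missed threshold does not show that the groups were alike. Of the 64 genes 46 were lower and 18 higher in CGP, so that 71.9 percent were lower, against 52.1 percent of all tested probesets. The median difference was -0.032 over the 64 genes and -0.0031 over all tested probesets. By complex, the median was -0.031 in complex I (25 of 34 lower), -0.051 in complex II (3 of 4), -0.050 in complex III (7 of 8) and -0.013 in complex IV (11 of 18).

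**Figure D1:**
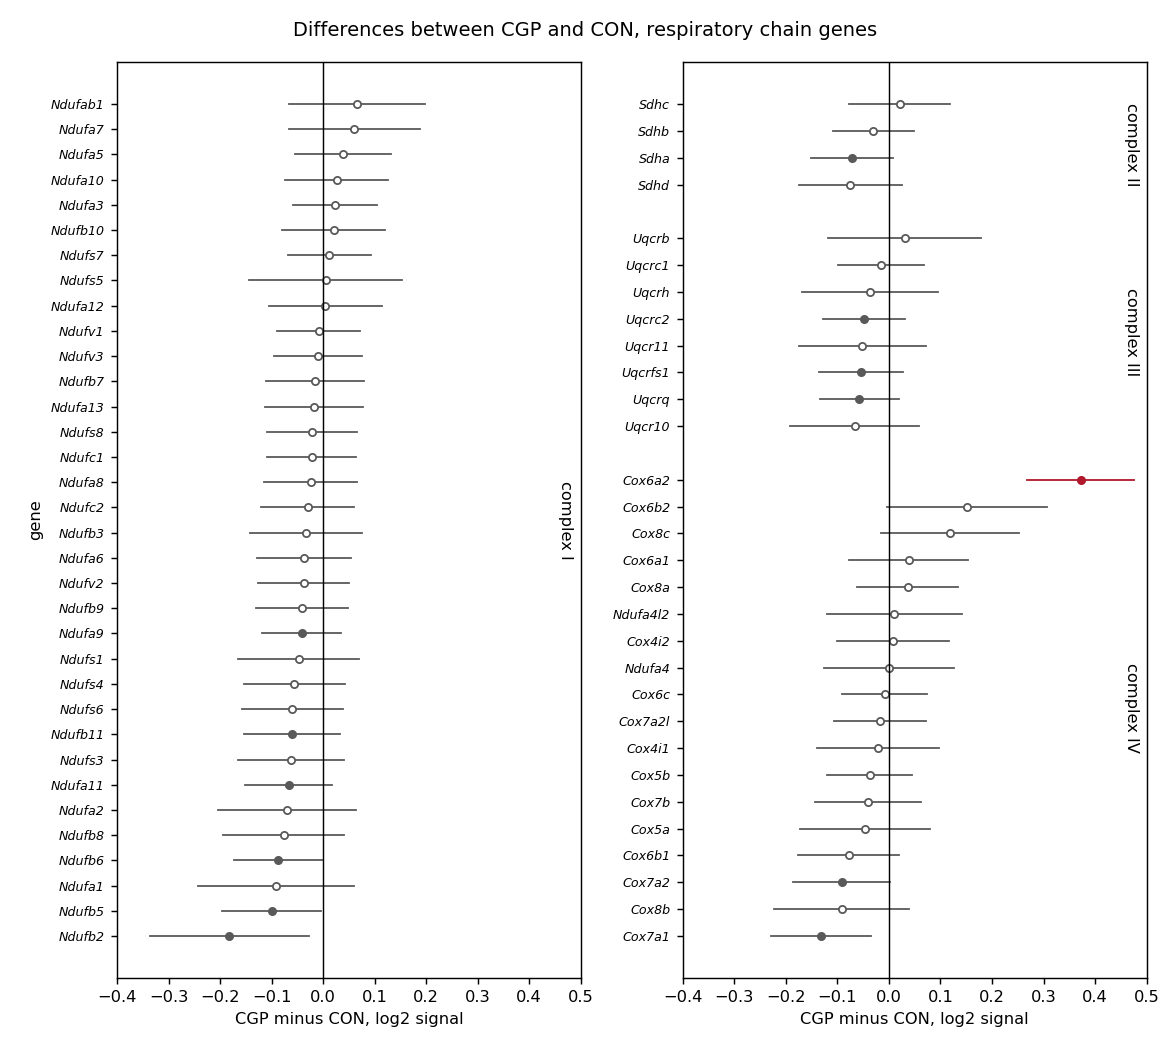
Each point is 1 gene's difference in log2 signal, CGP minus CON, on the horizontal axis, with complex I on the left and complexes II to IV on the right; bars are 95% limma intervals, filled points mark genes whose 3 CGP and 3 CON arrays do not overlap, and red marks an adjusted p under 0.05. Cox6a2 stands at 0.37, and the other 63 genes lie between -0.18 and 0.15.

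In 12 genes all 3 CGP arrays were below all 3 CON arrays, which is 18.8 percent of the 64 against 9.95 percent of all tested probesets. In 1 gene, Cox6a2, all CGP arrays were above, which is 1.56 percent against 7.59 percent. The 12 genes were Ndufb6, Ndufb11, Ndufa11, Ndufb5, Ndufa9 and Ndufb2 of complex I, Sdha of complex II, Uqcrc2, Uqcrq and Uqcrfs1 of complex III, and Cox7a2 and Cox7a1 of complex IV. Their differences ran between -0.042 for Ndufa9 and -0.18 for Ndufb2, and none passed the adjusted threshold.

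Part of this shift rested on 1 library. CON replicate 1 was above the gene's mean over the 6 arrays in 57 of the 64 genes (89.1 percent, against 54.9 percent of all tested probesets), and it was the highest of the 6 arrays in 34 of them (53.1 percent, against 19.0 percent). The median deviation of the 64 genes from their own means was 0.0029, -0.033 and -0.020 in CGP replicates 1 to 3, and 0.044, -0.0035 and 0.00033 in CON replicates 1 to 3. CGP replicate 1 thus lay above CON replicates 2 and 3 by this measure, and the arrays of the 2 groups overlapped. Without CON replicate 1 the median difference over the 64 genes was -0.013 and 42 of 64 were lower (65.6 percent, against 50.9 percent of all tested probesets). The medians by complex were then -0.012, -0.033, -0.028 and 0.0040 in complexes I to IV, and 12 genes had both groups apart in the lower direction (18.8 percent, against 13.7 percent of all tested probesets). Leaving out any of the other arrays left the median between -0.039 and -0.027 with 45 to 51 genes lower. The shift also moved with scaling. Once each array was centred on its median, the median difference over the 64 genes was -0.019 and 42 were lower. The medians by complex were then -0.019, -0.039, -0.038 and -0.00058 in complexes I to IV.

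**Figure D2:**
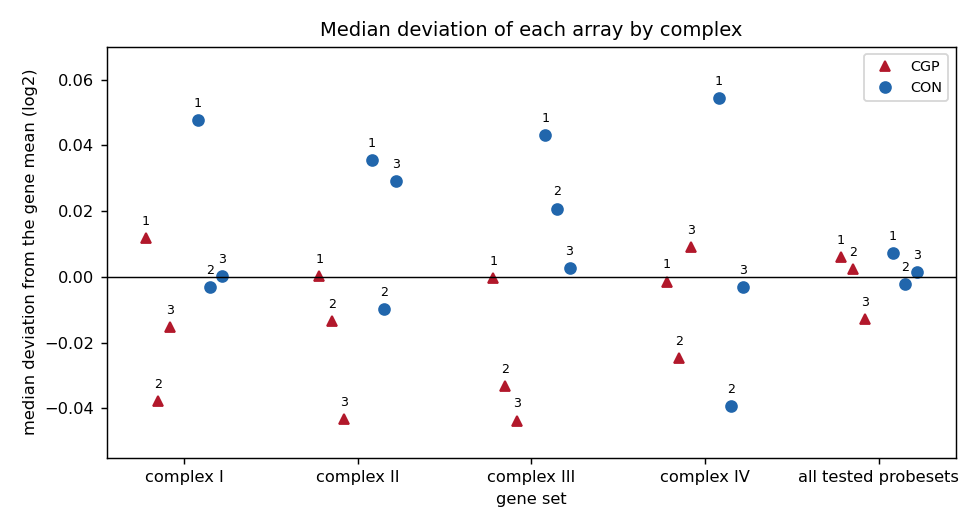
The vertical axis gives the median, over the genes of each complex and over all tested probesets, of an array's log2 signal minus the gene's mean over the 6 arrays; triangles are CGP arrays, circles CON arrays, and the digits are replicate numbers. CON replicate 1 is the highest array in all 4 complexes, while over all tested probesets the 6 arrays lie close to 0.

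**Figure D3:**
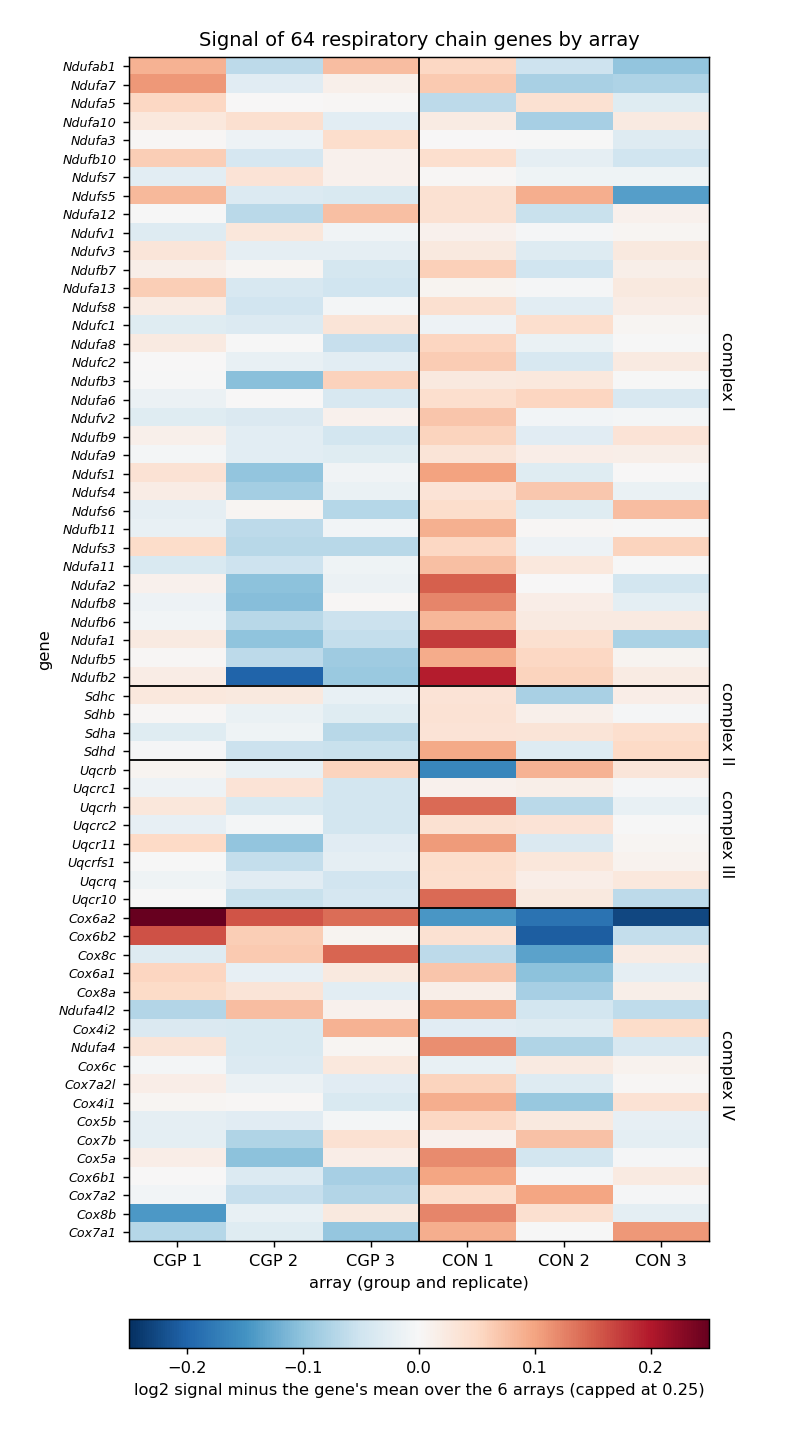
Rows are the 64 genes, grouped by complex and sorted by difference, and columns are the 6 arrays with CGP on the left and CON on the right; colour is log2 signal minus the gene's mean, capped at 0.25 either way. Warm colours run down the column of CON replicate 1, and Cox6a2 is the only row with all 3 CGP arrays warm and all 3 CON arrays cold.

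Genes for the respiratory chain are known for promoters rich in CpG and for binding sites of NRF1, of ETS family factors such as GABP, and of YY1. RefSeq promoter windows (assembly GRCm38.p6, from 250 bases before to 50 bases after the start) were given for 51 of the 64 genes. None was given for Cox6a2. Where a gene had several windows, a match in any of them counted, and the highest CpG ratio was taken. The letters CGCATGCG, the NRF1 core, were found on either strand in 5 of these 51 genes (9.8 percent). The shares were 3.47 percent of tested genes with a window and 2.07 percent of all genes with a window. For the ETS letters CCGGAAG these shares were 21.6 percent of the 51 genes, 15.6 percent of tested genes and 9.93 percent of all genes. For the YY1 letters ATGGCGGC they were 11.8, 4.38 and 2.6 percent, and all 6 matches lay in complex I genes (Ndufa7, Ndufa9, Ndufb5, Ndufs4, Ndufs6 and Ndufs7). No searched motif is contained in another. A match describes the letters only, and no binding was measured. The median ratio of observed to expected CpG was 0.807 over the 51 genes, 0.723 over tested genes and 0.415 over all genes with a window.

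To show the NRF1 letters in place, 30 bases are printed for 3 of the 5 genes with a match, which were Ndufa11, Ndufa8, Uqcr11, Uqcrc1 and Cox6a1. The sequences run 5′ to 3′ on the gene's own strand, and capitals mark the motif. The Ndufa11 stretch is chr17:56717692-56717721 on the plus strand, with the motif starting 59 bases before the start. The Ndufa8 stretch is chr2:36049339-36049368 on the minus strand, 9 bases before. The Cox6a1 stretch is chr5:115349101-115349130 on the minus strand, 161 bases before.
Ndufa11: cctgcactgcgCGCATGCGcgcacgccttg
Ndufa8: gcgcttgcgcgtcgctggagaCGCATGCGc
Cox6a1: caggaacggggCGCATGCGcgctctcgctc
The 3 genes had differences of -0.067, -0.024 and 0.038 in this order, of which only Ndufa11 had its CGP arrays all below its CON arrays.

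Complex I is built around a core that holds the flavin and the iron-sulphur clusters, surrounded by many accessory subunits. Mean signals of its 34 genes ran between 8.60 (Ndufa5) and 13.39 (Ndufc2), but signals of different probesets cannot be ranked against each other, so each gene is compared only with itself. Among the 6 measured genes of the flavin and iron-sulphur core, 5 were lower in CGP, the median difference was -0.029, and none passed the test. Ndufv1, which encodes the subunit that binds FMN and oxidises NADH, differed by -0.0086, and its partner Ndufv2 by -0.037. Ndufs1, whose protein carries several iron-sulphur clusters on the way from the flavin, differed by -0.047, and Ndufs3, which lies in the arm that leads to ubiquinone, by -0.062. Ndufs8 differed by -0.021. Ndufs7, which carries the cluster that hands electrons to ubiquinone, was the one core gene with a positive difference, at 0.012. Its signals of 12.81, 12.87 and 12.84 in CGP and 12.84, 12.82 and 12.82 in CON overlapped.

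Of the other 28 complex I genes 20 were lower in CGP, with a median of -0.031, and again none passed the test. The gene with the most negative difference was Ndufb2, which encodes an accessory subunit of the membrane arm. Its signals were 8.77, 8.55 and 8.66 in CGP and 8.95, 8.80 and 8.77 in CON. The lowest CON array and the highest CGP array were separated by less than the spread within either group, and the difference of -0.18 (SE 0.067) had an adjusted p of 0.409 (limma). Together with Cox6b2, Ndufb2 had the widest spread between replicates of the 64 genes, with a within-group SD of 0.102. Ndufb5, also of the membrane arm, had 11.11, 11.04 and 11.02 in CGP and 11.20, 11.16 and 11.11 in CON, a difference of -0.10 with an adjusted p of 0.438 (limma). Ndufb6, of the same arm, had 11.98, 11.92 and 11.93 in CGP and 12.07, 12.01 and 12.01 in CON, a difference of -0.087 with an adjusted p of 0.451 (limma). In these 3 genes CON replicate 1 was the highest array.

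Ndufa1, an accessory subunit gene on the X chromosome, differed by -0.091, but its arrays overlapped, with 8.71, 8.59 and 8.63 in CGP and 8.87, 8.73 and 8.61 in CON. Ndufa9, whose protein binds a nucleotide cofactor near the junction of both arms, had the tightest replicates of the 64 genes, with a within-group SD of 0.011. Its signals were 10.76, 10.73 and 10.73 in CGP and 10.79, 10.78 and 10.78 in CON. The groups did not overlap, yet the difference was only -0.042 with an adjusted p of 0.675 (limma). Ndufa11 and Ndufb11, both of the membrane arm, differed by -0.067 and -0.061. Ndufc2, also of the membrane arm, had 13.39, 13.37 and 13.36 in CGP and 13.45, 13.35 and 13.41 in CON, which overlapped.

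Positive differences in complex I were small. Ndufab1, the mitochondrial acyl carrier protein, which serves fatty acid synthesis as well as complex I, had the most positive one at 0.066, with 10.39, 10.24 and 10.38 in CGP and 10.36, 10.25 and 10.21 in CON. Ndufa7 differed by 0.061 and Ndufa5 by 0.038. The arrays of all 3 genes overlapped between groups, and CGP replicate 1 was the highest array in each.

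Complex II, succinate dehydrogenase, is the one complex shared by the respiratory chain and the TCA cycle. Sdha, the flavoprotein that oxidises succinate, had 11.69, 11.72 and 11.66 in CGP and 11.76, 11.76 and 11.77 in CON. All CGP arrays were below the CON arrays, which were almost level, and the difference was -0.072 with an adjusted p of 0.497 (limma). Sdhb, the iron-sulphur subunit, had 10.50, 10.48 and 10.47 in CGP and 10.54, 10.51 and 10.50 in CON, and the groups overlapped narrowly at a difference of -0.030. The membrane anchors, which bind ubiquinone, did not share a sign. Sdhc had 11.26, 11.26 and 11.22 in CGP and 11.27, 11.16 and 11.25 in CON, a difference of 0.021. Sdhd had 10.64, 10.59 and 10.59 in CGP and 10.74, 10.61 and 10.69 in CON, a difference of -0.075. Both anchors had overlapping groups.

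In complex III, 3 of 8 genes had all CGP arrays below all CON arrays (37.5 percent, against 9.95 percent of all tested probesets), and none passed the test. Uqcrfs1, the Rieske iron-sulphur protein that takes electrons from ubiquinol, had 9.29, 9.23 and 9.27 in CGP and 9.34, 9.32 and 9.30 in CON. Uqcrq, a small subunit known as a ubiquinone-binding protein, had 11.16, 11.14 and 11.12 in CGP and 11.21, 11.19 and 11.19 in CON. Uqcrc2, a core protein on the matrix side, had 11.98, 11.99 and 11.95 in CGP and 12.03, 12.03 and 12.00 in CON. The 3 differences were -0.054, -0.057 and -0.048 in that order, and their adjusted p-values were 0.612, 0.574 and 0.643 (limma). The other core protein gene, Uqcrc1, differed by -0.016, and the hinge protein gene Uqcrh by -0.038. Uqcr10 had the most negative difference of complex III at -0.066, with 10.27, 10.21 and 10.23 in CGP and 10.41, 10.29 and 10.21 in CON, so that its groups overlapped. Uqcr11 differed by -0.051. Uqcrb was the one positive gene at 0.031, and there CON replicate 1 was the lowest array, with 12.25, 12.23 and 12.30 in CGP and 12.08, 12.33 and 12.27 in CON.

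Complex IV differs from the others in having paralogous forms of several subunits, one used in most tissues and another known from muscle, lung or testis. Mean signals of its 18 genes ran between 7.08 (Cox8c) and 13.75 (Cox6c). The one gene that rose belongs to the paralogs. Cox6a2 had 9.55, 9.45 and 9.43 in CGP and 9.15, 9.11 and 9.06 in CON. The lowest CGP array was 0.285 above the highest CON array, and the means were 9.48 ± 0.065 in CGP and 9.11 ± 0.042 in CON (SD, n = 3 arrays each). The difference was 0.37 (SE 0.045, 95% interval 0.27 to 0.48), or 1.29-fold, with an adjusted p of 0.0249 (limma). Its paralog Cox6a1, the form found in most tissues, had 12.14, 12.07 and 12.11 in CGP and 12.16, 11.98 and 12.06 in CON. These groups overlapped at a difference of 0.038 with an adjusted p of 0.815 (limma).

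The Cox6a2 call was close to the threshold. It was also made in 5 of 14 refits, and not in the other 9, although the difference stayed between 0.33 and 0.39 in all of them. Leaving out any single array gave an adjusted p between 0.0632 and 0.131 (limma), and among all tested probesets 2 to 5 were then called higher and 3 to 8 lower. Cox6a2 was also below 1.4-fold, a size that 0.0493 percent of all tested probesets reached together with the adjusted p. An exact permutation test over 3 against 3 arrays cannot go below a p of 0.1.

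Cox6a2 is expressed in muscle and, in brain, is known from fast-spiking interneurons, so marker lists were set beside it. Of 10 genes for striated muscle 9 passed the signal filter, of which 3 were higher and 6 lower and none passed the test. Their summed log2 signal was 10.79 to 10.90 in CGP and 10.84 to 10.89 in CON, and the muscle creatine kinase Ckm averaged 7.59 in CGP and 7.60 in CON. Of 10 genes of parvalbumin interneurons 3 were higher and 7 lower, and none passed the test. In 5 of the 10 all CGP arrays were below and in 1 above, against 9.95 and 7.59 percent of all tested probesets. Pvalb differed by -0.21 and Syt2 by -0.28, while Kcnc2 differed by 0.16. The summed signal of that list was 13.30 to 13.34 in CGP and 13.34 to 13.39 in CON. All 12 genes of a thalamus list were higher. In 9 of the 12 all CGP arrays were above, against 7.59 percent of all tested probesets. Of the 12 genes, Ptpn3 (0.36) and Prkcd (0.27) passed the test. The summed signal of that list was 13.86 to 13.89 in CGP and 13.64 to 13.67 in CON. The thalamus and parvalbumin lists were added after the data had been seen, so their counts are a description only and test no source. Brown fat genes were near the filter, with 2 of 3 higher, none past the test, and a summed signal of 8.40 to 8.56 in CGP and 8.38 to 8.39 in CON. The part of other cells or neighbouring tissue in the Cox6a2 result was not tested.

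**Figure D4:**
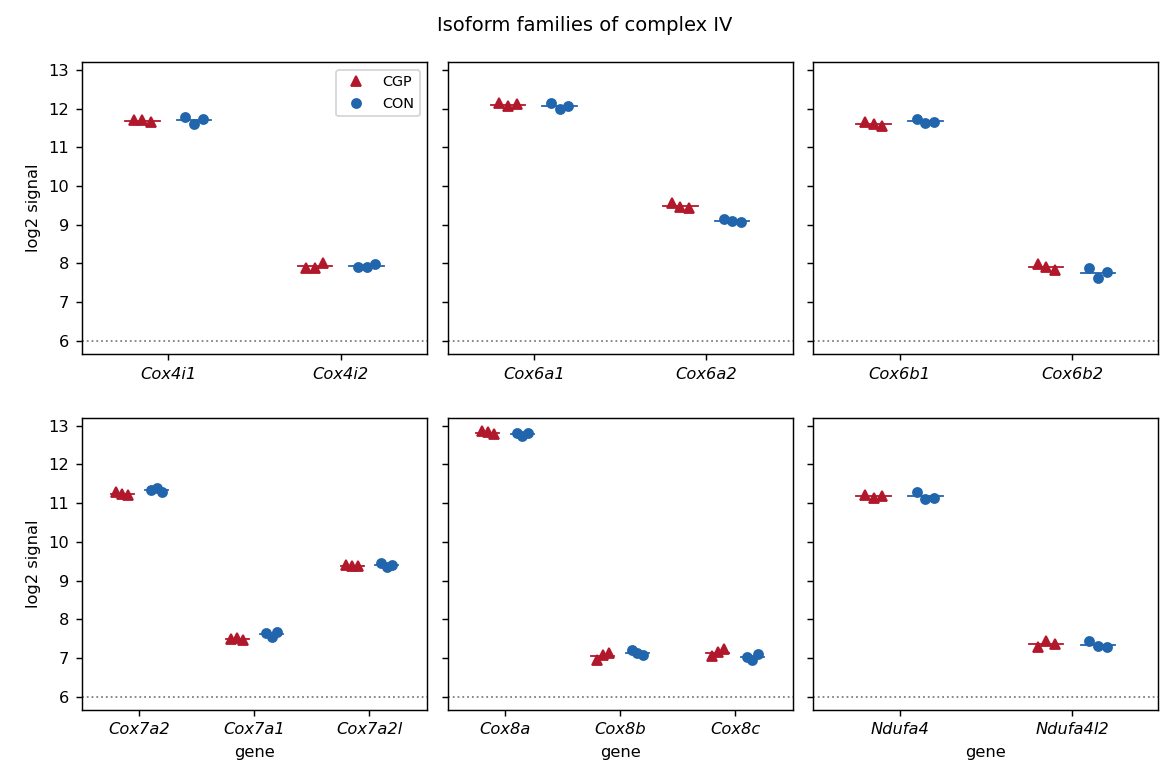
Each panel shows 1 family of paralogs of complex IV, with log2 signal on the vertical axis, red triangles for the 3 CGP arrays, blue circles for the 3 CON arrays, short lines at the group means and a dotted line at the signal filter of 6. Only Cox6a2 shows a wide gap between groups (9.43 to 9.55 in CGP, 9.06 to 9.15 in CON), and heights of different genes cannot be compared because each probeset has its own response.

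The remaining paralogs of tissue-restricted type did not move as a class. Cox6b2, the testis form of a subunit on the intermembrane side, had the second most positive difference at 0.15 with an adjusted p of 0.458 (limma). Its signals were 7.99, 7.90 and 7.84 in CGP and 7.87, 7.63 and 7.78 in CON, which overlapped. Cox8c, another testis form, had 7.05, 7.14 and 7.22 in CGP and 7.01, 6.94 and 7.10 in CON, a difference of 0.12 with overlapping groups. All 4 testis markers were also higher, with none past the test and a summed signal of 8.80 to 8.96 in CGP and 8.69 to 8.86 in CON. Their mean signals were low, at 6.23 to 7.34. The mice were female, so these markers do not stand for testis tissue here, and the source of their signal was not tested.

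The muscle forms Cox7a1 and Cox8b had negative differences, and neither passed the test. Cox7a1 had 7.48, 7.52 and 7.45 in CGP and 7.64, 7.55 and 7.66 in CON. Its groups did not overlap, and its difference of -0.13 (SE 0.042) carried the smallest adjusted p of the 63 genes without a call, 0.344 (limma). Cox8b had 6.95, 7.07 and 7.11 in CGP and 7.21, 7.13 and 7.07 in CON, which overlapped at a difference of -0.092. Cox4i2, the form known from lung, differed by 0.0082 and Ndufa4l2, which is induced by low oxygen in several cell types, by 0.010.

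Of the paralogs used in most tissues, Cox7a2 was the one whose groups did not overlap. Its signals were 11.28, 11.23 and 11.21 in CGP and 11.33, 11.39 and 11.28 in CON, and the difference of -0.092 had an adjusted p of 0.457 (limma). Cox6b1 differed by -0.078 and Cox4i1 by -0.021, while Cox8a differed by 0.036. Cox7a2l differed by -0.017. Ndufa4 averaged 11.18 in both groups, the closest match of the 64 genes. The other complex IV genes, Cox5a, Cox5b, Cox6c and Cox7b, differed by -0.046, -0.038, -0.0085 and -0.040, and all 4 had overlapping groups.

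To show how promoters differ between paralogs, the 100 bases before the start are printed for Cox7a2 and Cox8a, used in most tissues, and for their muscle forms Cox7a1 and Cox8b, with each CpG in capitals, 5′ to 3′ on the gene's own strand. The stretches are chr9:79759854-79759953 on the minus strand for Cox7a2, chr7:30184071-30184170 on the plus strand for Cox7a1, chr19:7217617-7217716 on the minus strand for Cox8a and chr7:140900447-140900546 on the minus strand for Cox8b.
Cox7a2: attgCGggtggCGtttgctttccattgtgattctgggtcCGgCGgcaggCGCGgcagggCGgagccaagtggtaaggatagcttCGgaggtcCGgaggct
Cox7a1: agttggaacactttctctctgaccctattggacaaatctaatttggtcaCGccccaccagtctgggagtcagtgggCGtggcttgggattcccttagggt
Cox8a: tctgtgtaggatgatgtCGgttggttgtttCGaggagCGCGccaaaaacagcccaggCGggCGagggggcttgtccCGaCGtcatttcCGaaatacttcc
Cox8b: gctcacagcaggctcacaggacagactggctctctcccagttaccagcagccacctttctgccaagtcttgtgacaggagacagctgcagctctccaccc
Cox7a2 and Cox8a each have 9 CpG in these bases, against 2 in Cox7a1 and 0 in Cox8b. The contrast was weaker in another pair, not printed here, with 9 in Cox6b1 and 4 in its testis form Cox6b2. Across the 64 genes, windows were given for 43 of the 53 with a mean signal of at least 9 and for 8 of the 11 below it. The median ratio of observed to expected CpG was 0.833 over these 43 genes and 0.564 over these 8, and none of the 3 motifs was matched in the 8. The signal of a probeset depends on its sequence as well as on RNA level, so this split is a description only.

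For 11 of the 64 genes there were several probesets that name the gene alone, and in all 11 the differences had the same sign across them. Genes of this family have many processed pseudogenes, whose sequence is nearly that of the gene, and how far such copies contribute to a probeset's signal is uncertain.

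Lists of related genes also had small differences. In complex V, which makes ATP, 14 of 19 genes were lower with a median of -0.038, and Atp5md had the most negative value at -0.10. Of 16 assembly factors of complex I 13 were lower (median -0.044, Ndufaf7 at -0.11), and of 28 assembly factors of complexes II to IV 19 were lower (median -0.040, Sdhaf4 at -0.18). Of 18 genes for cytochrome c, quinone synthesis and other entry points of electrons 15 were lower (median -0.030, Etfa at -0.11). These 18 include Cyc1 (-0.025), a complex III subunit gene that the choice by symbol left out. In the TCA cycle 11 of 12 genes were lower (median -0.026, Idh3b at -0.050), and among 9 genes of the outer mitochondrial membrane 8 were lower (median -0.030, Vdac3 at -0.12). Of 12 regulators of mitochondrial gene expression, such as Nrf1 and the mitochondrial transcription factor Tfam, 8 were lower (median -0.034), with Tfb1m and Tfam both at -0.15. No gene of these lists passed the test in either direction. A list from outside the mitochondrion, 16 genes of the cytosolic ribosome, had 13 of 16 lower, a median of -0.030 and Rpl7 at -0.12. CON replicate 1 had the highest summed signal of the 6 arrays for complex V, both lists of assembly factors and the TCA cycle, and CON replicate 2 had it for the other 4 lists. Without CON replicate 1, an alternative added after the data had been seen, the median was -0.015 in complex V (13 lower) and -0.018 in the outer membrane list (7 lower). It was -0.041 and -0.030 for the assembly factors of complex I (13 lower) and of complexes II to IV (20 lower), and -0.019 in the TCA cycle (8 lower). It was -0.035 for the carriers and entry points (15 lower), -0.037 for the regulators (8 lower) and -0.021 for the ribosome (11 lower).

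**Figure D5:**
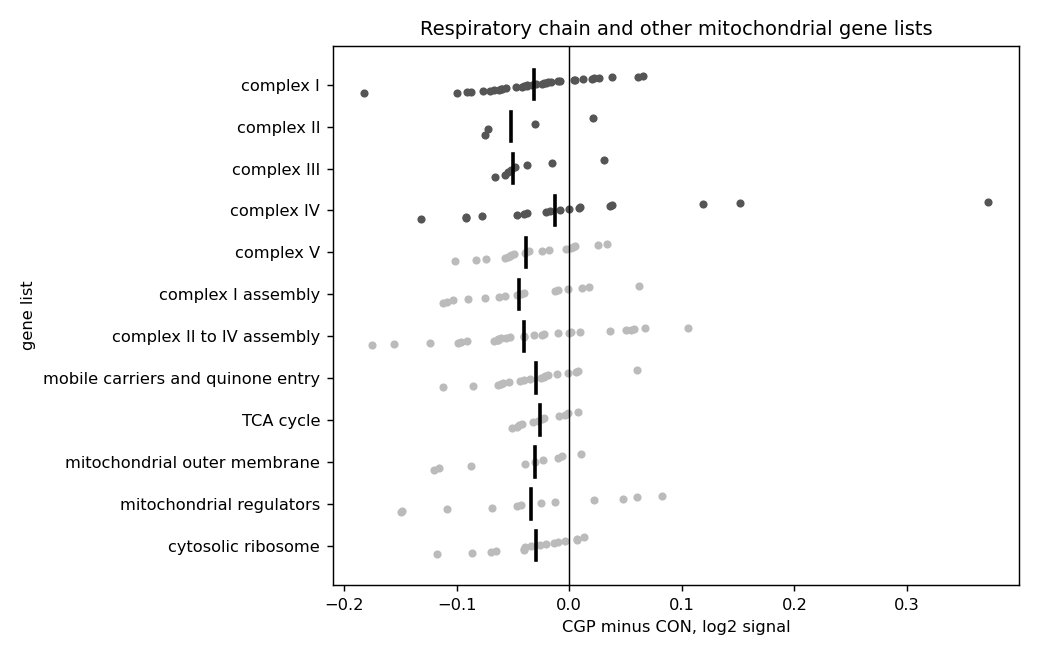
Each point is 1 gene's difference in log2 signal, CGP minus CON, on the horizontal axis, with 1 row per gene list and a black bar at each list's median; complexes I to IV are dark grey and the other lists light grey. All 12 medians lie between -0.051 and -0.013.

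Marker lists of cell types are given beside these differences, and their part in them was not tested. Medians were -0.021 over 9 neuronal genes (5 lower), -0.065 over 7 astrocyte genes (6 lower) and -0.057 over 7 oligodendrocyte genes (6 lower). They were -0.072 over 8 microglial genes (7 lower) and -0.077 over 12 endothelial and mural genes (11 lower, Acta2 called at -0.35). Without CON replicate 1 these medians were, in the same order, -0.0026, -0.053, -0.047, -0.086 and -0.069. The summed signal of the neuronal list was 15.43 to 15.45 in CGP and 15.44 to 15.46 in CON, and that of the astrocyte list 13.83 to 13.89 in CGP and 13.89 to 13.92 in CON. For oligodendrocytes it was 14.32 to 14.36 in CGP and 14.38 to 14.42 in CON, for microglia 12.06 to 12.10 in CGP and 12.13 to 12.14 in CON, and for endothelial and mural cells 12.32 to 12.39 in CGP and 12.42 to 12.46 in CON. Of 12 meningeal genes 9 were lower, and Prg4, Ogn, Fmod, Slc6a20a, Igf2 and Aldh1a2 passed the test at -0.57 to -0.25, with a summed signal of 12.62 to 12.68 in CGP and 12.90 to 12.95 in CON. All 8 choroid plexus genes were higher, and Ttr (0.84) and Slc4a5 (0.40) passed the test, with a summed signal of 13.03 to 13.07 in CGP and 12.36 to 12.44 in CON. Of 6 anterior pituitary genes 5 were higher, with Gh (0.39) and Lhb (0.46) called and a summed signal of 14.72 to 14.77 in CGP and 14.48 to 14.54 in CON. Of 8 ependymal and tanycyte genes 4 were higher, both erythroid genes were lower, and none of these passed the test. All 14 measured hypothalamic markers passed the filter, 8 of them lower, and only Pomc was called, at 1.56. The others lay between -0.14 (Nkx2-1) and 0.061 (Oxt). The part of pituitary tissue in the Pomc difference was not tested. Correlations between arrays were 0.997 to 0.998 within groups and 0.996 to 0.998 between groups.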

How the data were processed

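The authors deposited 1 table of log2 signals for 28471 probesets on the 6 arrays, made with RMA and Partek per the submitters' processing notes. Versions and the genome build of the probesets: not given in the sources used here. These values were used as deposited. In the platform annotation 18690 probesets name 1 gene, 1163 name several, and 8618 are unlisted or carry no gene. Entrez identifiers matched the RefSeq table (GRCm38.p6) for 18620 probesets, and 0 symbols of the respiratory chain genes differed. A minimum mean signal of 6 excluded 451 probesets, so that 18239 were tested, for 16663 genes.

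CGP was compared with CON by lmFit and eBayes in limma 3.58.1 (R 4.3.3) on all 6 arrays with no covariate, two-sided, with Benjamini-Hochberg adjustment over all tested probesets, and a gene was called at an adjusted p under 0.05. Differences are CGP minus CON. Summed signals of lists are sums of linear signals given as log2. Medians and counts over the respiratory chain genes carry no test. The number of arrays limits the precision. Promoter windows were read with Python 3.11.15 and pandas 2.3.3, and plots drawn with matplotlib 3.10.9. The fit was tested on simulated data.

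The genes and lists were chosen with earlier results of these data known. Named were genes called, all of complex II, per complex the 3 largest differences either way and the genes at both ends of the signal range, the isoform families of complex IV, the widest and tightest replicates, and of each other list the genes called or, failing that, the largest difference among pathway genes. Others are named for their role or because their arrays did not overlap. Alternatives were centring, other signal filters, all probesets, a variance trend with robust fitting, array weights, the replicate number as a block, ordinary variances, a 1.4-fold minimum, other ways to choose a gene's probeset, and leaving out each array.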

Additional observations from a re-analysis of the deposited data

How the results depend on the processing

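No respiratory chain gene was called lower under any alternative run. Cox6a2 remained called after centring (adjusted p 0.0161), with no filter (0.0275), with a filter of 7 (0.0108), with trend and robust fitting (1.52e-04) and with array weights (0.0202). It was lost, leaving 0 genes called higher, with all probesets tested (adjusted p 0.114 at 0.37), with the replicate block (0.0872), with ordinary variances (0.192), at a minimum of 1.4-fold, and without any one array (0 to 0 genes, adjusted p 0.0632 to 0.131, limma). Over all tested probesets 28 were called higher and 23 lower. These counts were 44 and 37 with the filter of 7, 2 and 2 with all probesets tested, 113 and 136 with trend and robust fitting, 4 and 2 with ordinary variances, 3 and 6 at 1.4-fold, and 2 to 5 and 3 to 8 without any one array. Array weights gave 38 lower, and the replicate block gave 2 higher and 4 lower. Arrays with the same number did not deviate together (correlations 0.0776, -0.179 and 0.113). The best match was the own number for 1 of 3 CGP and 1 of 3 CON arrays. No pairing by number was seen, but 3 arrays per group are too few to exclude it. Of 896 values of a gene under an alternative, 887 kept their direction and side of the threshold or had no call to lose, the 9 others were Cox6a2 losing its call, and 0 reversed a call. In 22 of the 64 genes an uncalled difference changed sign under some alternative, and the median of complex III was -0.028 without CON replicate 1. The number of arrays per group and the pooled RNA limit what can be seen, and differences under the interval half-width (median 0.0977) could not be told from 0 at this precision.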
